A study of Mus musculus with 20 samples.

Results

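The 10 genes described here handle zinc in the ovary. They are the metallothioneins *Mt1* and *Mt2*, the metal-responsive transcription factor *Mtf1*, 3 transporters of the Slc30 family (*Slc30a1*, *Slc30a5*, *Slc30a9*) and 4 importers of the Slc39 family (*Slc39a1*, *Slc39a8*, *Slc39a10*, *Slc39a14*). They are 10 of 54838 genes in the count tables, and all 10 were matched by symbol to an Ensembl identifier. The set was chosen on measured values, because the line difference of *Slc30a1* depended on stage in these libraries. Values of the lines in each stage are therefore a description of the 10 genes, given without p-values, and the few counts of genes past the threshold there only stand beside those of all genes. The difference between estrus and diestrus over both lines was not used for the choice in a balanced design, and it was tested in every gene but *Slc30a1*. The genes and comparisons were nonetheless set with earlier results of these data known. The p-values of the stage difference do not allow for that.

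Counts of 3' mRNA-Seq reads were analysed from whole ovaries of 20 female mice aged 77 days, 1 library per animal. Ovaries of ctrl (genotype label WT), an unselected outbred line, and of FL1, a line bred over the long term for high fertility, were taken in estrus or in diestrus, with 5 libraries in each of the 4 groups. Both lines go back to the same outbred stock, and each is a single population, so selection and drift cannot be told apart in their difference. The stage was read from vaginal cytology, and fat, tunica albuginea and oviduct had been removed from the ovaries. Total counts were 5991223 to 10352718 per library, with a median of 6957533. The assay counts 1 read per captured 3' end, so a level does not grow with transcript length. Levels are CPM, counts scaled to a common library size after normalization.

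Zinc enters the cytosol through Slc39 (ZIP) proteins and leaves it, outwards or into organelles, through most Slc30 (ZnT) proteins. Metallothioneins are small cysteine-rich proteins that bind zinc and copper in the cytosol. When zinc is plentiful, the transcription factor encoded by *Mtf1* binds metal response elements in the promoters of *Mt1*, *Mt2* and *Slc30a1* and raises their transcription. Metallothioneins also respond to glucocorticoids and to inflammatory signals. In the ovary, zinc is best known from the oocyte, which gathers it while maturing and releases it at fertilization.

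The promoters of the metallothioneins and of *Slc30a1* are shown because these genes are known to be activated through *Mtf1* when zinc is plentiful. Each run holds 250 bases before and 50 bases from the RefSeq transcription start (GRCm38.p6), 5′ to 3′ in the direction of the gene, all 3 on the + strand. Capitals mark matches to the core of the metal response element, searched as TGCACNC and TGCGCNC on both strands. Matches on opposite strands were counted separately even where they overlap. *Mt1* (chr8:94178839-94179138), *Mt2* (chr8:94172368-94172667) and *Slc30a1* (chr1:191906531-191906830) read as follows.
Mt1: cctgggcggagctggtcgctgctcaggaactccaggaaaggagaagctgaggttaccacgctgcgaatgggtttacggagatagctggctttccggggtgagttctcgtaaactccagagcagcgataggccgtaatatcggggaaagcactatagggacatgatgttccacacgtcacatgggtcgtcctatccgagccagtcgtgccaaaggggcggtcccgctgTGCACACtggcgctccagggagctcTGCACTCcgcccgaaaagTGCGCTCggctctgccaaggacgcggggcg
Mt2: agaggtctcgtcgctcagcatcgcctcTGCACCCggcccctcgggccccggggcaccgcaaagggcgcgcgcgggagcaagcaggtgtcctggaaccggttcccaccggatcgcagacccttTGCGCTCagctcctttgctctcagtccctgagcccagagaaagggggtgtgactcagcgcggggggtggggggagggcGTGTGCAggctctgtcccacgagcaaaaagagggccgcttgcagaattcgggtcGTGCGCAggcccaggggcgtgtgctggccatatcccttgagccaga
Slc30a1: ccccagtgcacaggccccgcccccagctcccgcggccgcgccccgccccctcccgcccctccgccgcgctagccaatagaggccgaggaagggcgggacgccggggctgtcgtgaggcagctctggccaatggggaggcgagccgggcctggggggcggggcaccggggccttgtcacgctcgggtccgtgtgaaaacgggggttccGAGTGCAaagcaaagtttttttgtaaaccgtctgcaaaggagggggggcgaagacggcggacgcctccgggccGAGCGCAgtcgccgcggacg

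The *Mt1* window held 3 matches, beginning 23 bases before the start, 2 bases after it and 20 bases after it, all in the direction of the gene. The *Mt2* window held 4 matches, at -223 and -128 in the direction of the gene and at -50 and 4 on the other strand. The *Slc30a1* window held 2 matches, at -43 and 30, both on the other strand. Of all 32851 RefSeq windows of this length, 25.7% held at least 1 match, 7.11% at least 2, 1.97% at least 3 and 0.517% at least 4. *Slc30a5* held 1 match at -48, and *Slc39a8* held 1 match at -19 in the second of its windows. Of the 10 genes, 9 have a window in this set, and 5 of these 9 held at least 1 match in any of their windows. No match was found in the windows of *Mtf1*, *Slc30a9*, *Slc39a1* and *Slc39a10*, and *Slc39a14* has no window there. Among the other zinc genes, 10 of 18 with a window held at least 1 match in any window. These are counts of genes, some with more than 1 window, and the percentages above are of windows, so they are not directly comparable. The letters describe these windows alone, and GENCODE places further starts of *Mt1* and *Mt2* downstream of the base used here. Matches near those starts may lie outside these windows, and positions counted from those starts would differ.

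**Figure D1:**
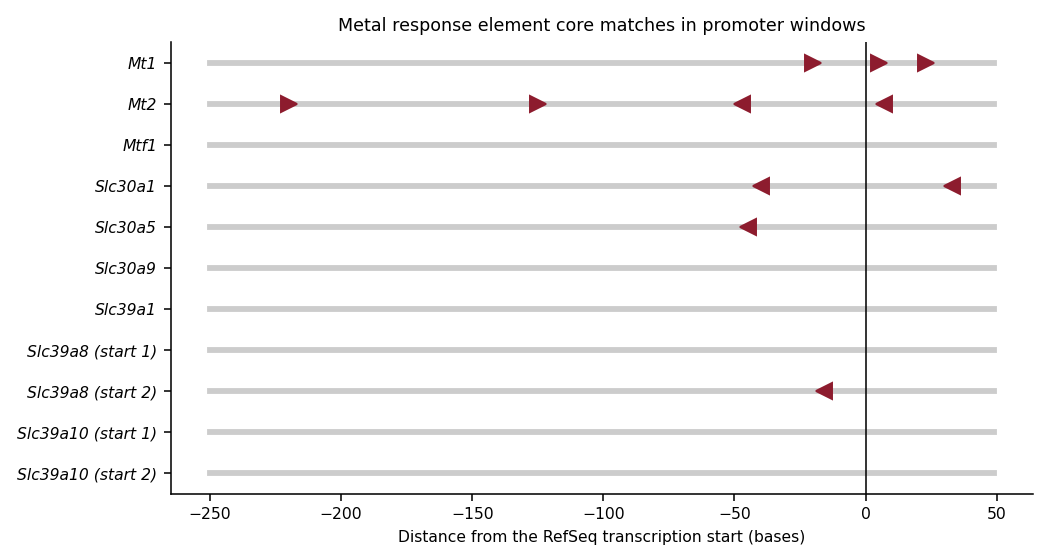
Position of each core match of the metal response element in the promoter windows of the 9 genes with a window (horizontal axis: distance from the RefSeq start in bases, 1 grey line per window). Arrowheads point right for matches in the direction of the gene and left for matches on the other strand, with 3 in *Mt1*, 4 in *Mt2*, 2 in *Slc30a1* and 1 each in *Slc30a5* and *Slc39a8*.

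All 10 genes were detected in all 20 libraries and passed the filter on low counts. In GRCm38, *Mt1* (chromosome 8, 94179082 to 94180327) and *Mt2* (chromosome 8, 94172664 to 94173568) lie close together, *Slc39a1* (90248172 to 90253612) and *Slc39a8* (135825279 to 135888572) lie on chromosome 3, and *Slc30a1* lies on chromosome 1 (191906767 to 191913247). *Mt1* was the strongest expressed with group means of 1015 to 1898 CPM, followed by *Mt2* with 387 to 887 CPM. The transporters lay far below. *Slc39a1* had group means of 74.0 to 95.7 CPM and *Slc30a9* of 66.3 to 76.2 CPM. *Slc39a14* was the weakest in the ctrl line with 9.81 CPM in estrus and 11.2 CPM in diestrus. None of the 10 genes shared the 3' end of its transcripts with a copy elsewhere in the genome. *Mtf1* overlaps *1110065P20Rik*, which lies on the opposite strand, in 721 exonic bases. The counting is not stated to use strand, and *1110065P20Rik* had 9529 counts in total against 4503 for *Mtf1*, so the *Mtf1* values are uncertain. *Mt2* and *Slc30a1* overlap opposite-strand genes with 17 and 11 counts in total.

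**Figure D2:**
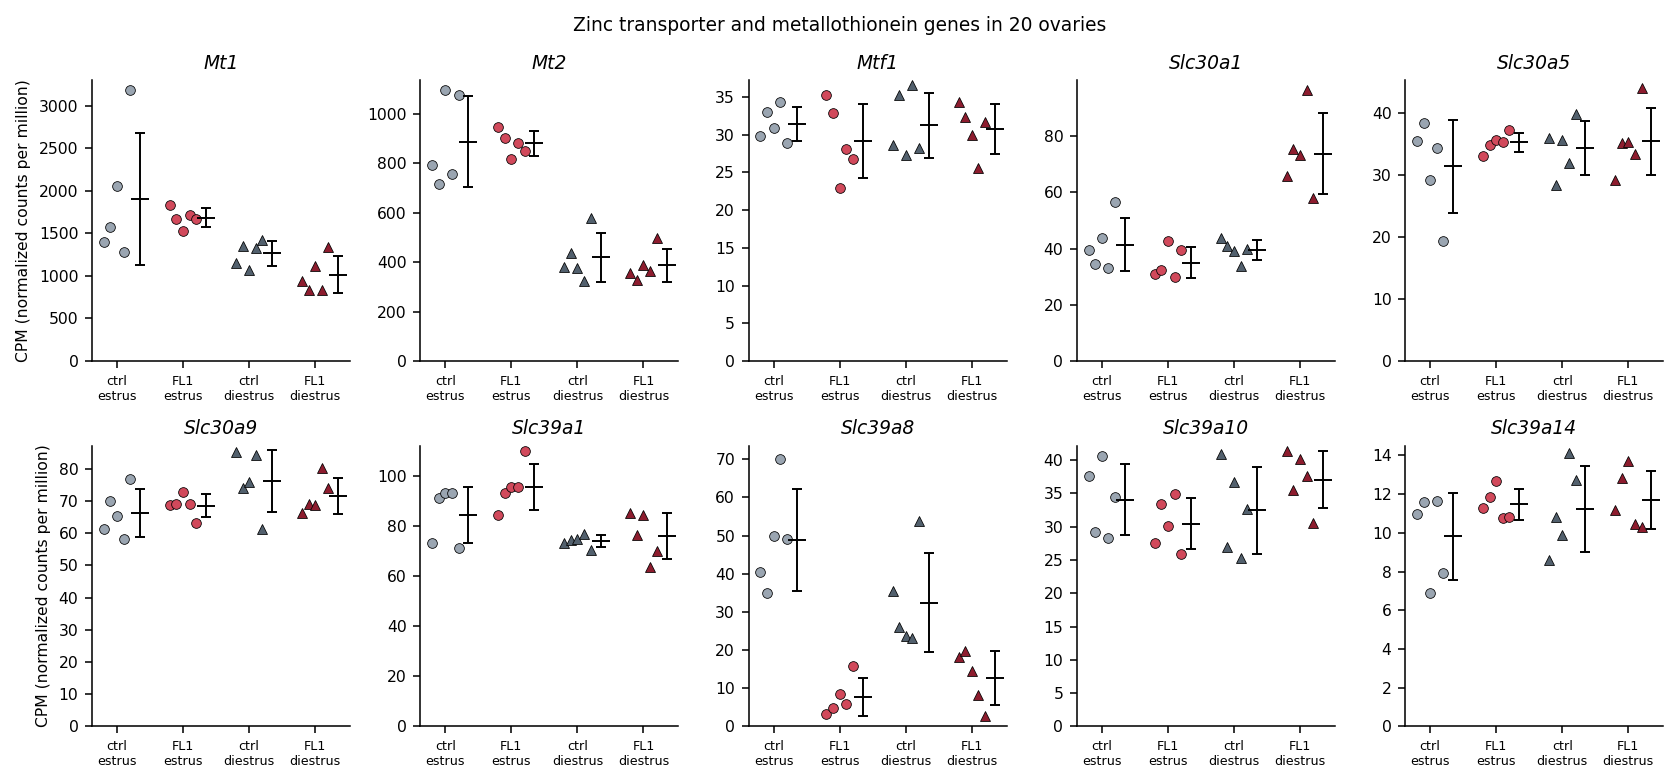
Expression of the 10 genes in each library (vertical axes: CPM from 0, scaled per gene; 1 point per animal, circles estrus and triangles diestrus), with the group mean and SD (n = 5) as a bar beside the points. *Mt2* separated estrus from diestrus in both lines, *Slc30a1* was raised in FL1 diestrus alone, and *Slc39a8* was low in both FL1 groups.

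The first question was whether expression of the zinc genes differed between estrus and diestrus. Of the 9 genes tested, *Mt1*, *Mt2* and *Slc39a1* were stronger expressed in estrus and none was weaker expressed. Of all 14154 tested genes, 15.9% differed between the stages, 8.25% being stronger and 7.62% weaker expressed in estrus. The median log2 fold change (log2FC, estrus minus diestrus) of the 10 genes was -0.06 and that of all tested genes 0.00017. The test was edgeR's quasi-likelihood test over all 20 libraries, with both lines weighted equally and p-values adjusted over all tested genes by the Benjamini-Hochberg method, and a gene passed at an adjusted p of at most 0.05.

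*Mt2* showed the largest stage difference of the 10 genes. In estrus its libraries had 794, 716, 1097, 756 and 1074 CPM in ctrl and 948, 903, 817, 884 and 849.9 CPM in FL1. In diestrus they had 380.3, 436, 375, 323 and 579.8 CPM in ctrl and 357, 327, 389, 364 and 499 CPM in FL1. Every estrus library lay above every diestrus library, in both lines and across them, which held for 1.05% of all tested genes. The mean was 884 ± 126 CPM in estrus and 403 ± 80.9 CPM in diestrus (SD, n = 10), and *Mt2* was 2.20-fold stronger expressed in estrus (log2FC 1.13, SE 0.11, adjusted p = 1.1e-07, edgeR). The log2FC was 1.08 (SE 0.17) in ctrl alone and 1.18 (SE 0.10) in FL1 alone.

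*Mt1* moved in the same direction by a smaller factor. In estrus it had 1395, 1579, 2060.4, 1278 and 3178 CPM in the ctrl libraries and 1837, 1669, 1523, 1711 and 1669.7 CPM in the FL1 libraries. In diestrus it had 1145, 1347, 1069, 1331 and 1423 CPM in ctrl and 942, 838, 1114, 839.6 and 1340.5 CPM in FL1. In FL1 all estrus libraries lay above all diestrus libraries, while in ctrl the lower estrus libraries overlapped the upper diestrus ones. *Mt1* was 1.58-fold stronger expressed in estrus (log2FC 0.66, SE 0.13, adjusted p = 0.0012, edgeR). Without the ctrl estrus library with the highest value (3178 CPM), the log2FC was 0.52. In ctrl alone the log2FC was 0.59 (SE 0.22) and did not pass the test, and in FL1 alone it was 0.73 (SE 0.12) and passed.

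The coefficient of variation of *Mt1* between animals was 40.8% in ctrl estrus and 21.8% there without the highest library, against 6.69% in FL1 estrus, 11.8% in ctrl diestrus and 21.1% in FL1 diestrus. For *Mt2* the corresponding values were 20.6%, 5.67%, 23.5% and 17.2%. In ctrl estrus the libraries with the highest values of *Mt1* were also the highest for *Mt2*. Over the 20 libraries Pearson's r of log2 CPM between *Mt1* and *Mt2* was 0.85, and it was 0.72 after the group means were removed. These points share the library and its normalization, and r is given as a description.

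The ratio of *Mt1* to *Mt2* is given as a description, since it was looked at after both stage differences had been seen. It was 2.10 ± 0.52 in ctrl estrus, 1.91 ± 0.05 in FL1 estrus, 3.11 ± 0.62 in ctrl diestrus and 2.61 ± 0.20 in FL1 diestrus (mean ± SD, n = 5). The log2 ratio in estrus minus that in diestrus was -0.51 (SE 0.10) over both lines, -0.58 in ctrl and -0.45 in FL1.

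**Figure D3:**
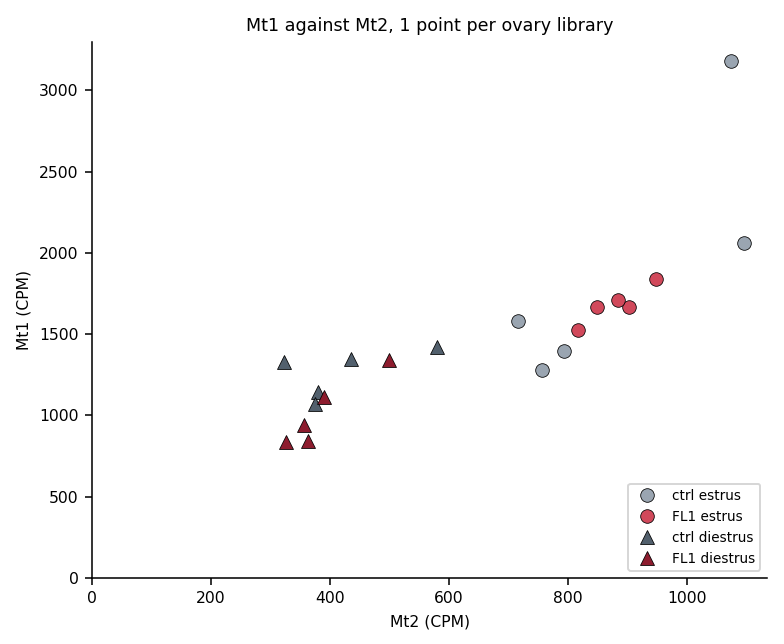
*Mt1* (vertical axis, CPM) against *Mt2* (horizontal axis, CPM) in the 20 ovaries, 1 point per library. The 10 estrus libraries lie at 716 CPM of *Mt2* or more and the 10 diestrus libraries at 580 CPM or less, while the *Mt1* values of the stages overlap.

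*Slc39a1*, which encodes the plasma membrane importer ZIP1, was the only transporter among the 9 tested genes that passed. In estrus it had 73.4, 91.2, 93.4, 93.1 and 71.4 CPM in ctrl and 84.4, 93.1, 95.7, 95.5 and 109.8 CPM in FL1. In diestrus it had 73.3, 74.3, 74.8, 77.0 and 70.5 CPM in ctrl and 85.3, 76.2, 84.4, 63.8 and 70.1 CPM in FL1. In ctrl estrus, 2 libraries lay within the range of ctrl diestrus and 3 above it, and in FL1 only the highest diestrus library lay above the lowest estrus library. The difference was 1.20-fold (log2FC 0.26, SE 0.07, adjusted p = 0.012, edgeR). It was 0.19 (SE 0.10) in ctrl alone, which did not pass the test, and 0.33 (SE 0.10) in FL1 alone, which did.

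The other tested genes did not pass. *Mtf1* had group means between 29.2 and 31.4 CPM and a log2FC of -0.04 (SE 0.09, adjusted p = 0.84, edgeR). *Slc30a5*, whose product loads zinc into the early secretory pathway, had group means between 31.3 and 35.4 CPM and a log2FC of -0.07 (SE 0.10). *Slc30a9*, linked to zinc export from mitochondria, had a log2FC of -0.13 (SE 0.07, adjusted p = 0.21, edgeR). The importer gene *Slc39a10* had group means between 30.4 and 37.0 CPM and a log2FC of -0.11 (SE 0.10), and *Slc39a14*, whose product carries manganese, iron and zinc, had a log2FC of -0.11 (SE 0.12). A missed threshold does not show equal expression. *Slc39a8* had a log2FC of -0.06 with an SE of 0.27. Its stage difference was 0.59 (SE 0.24) in ctrl and -0.72 (SE 0.44) in FL1, of opposite sign.

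**Figure D4:**
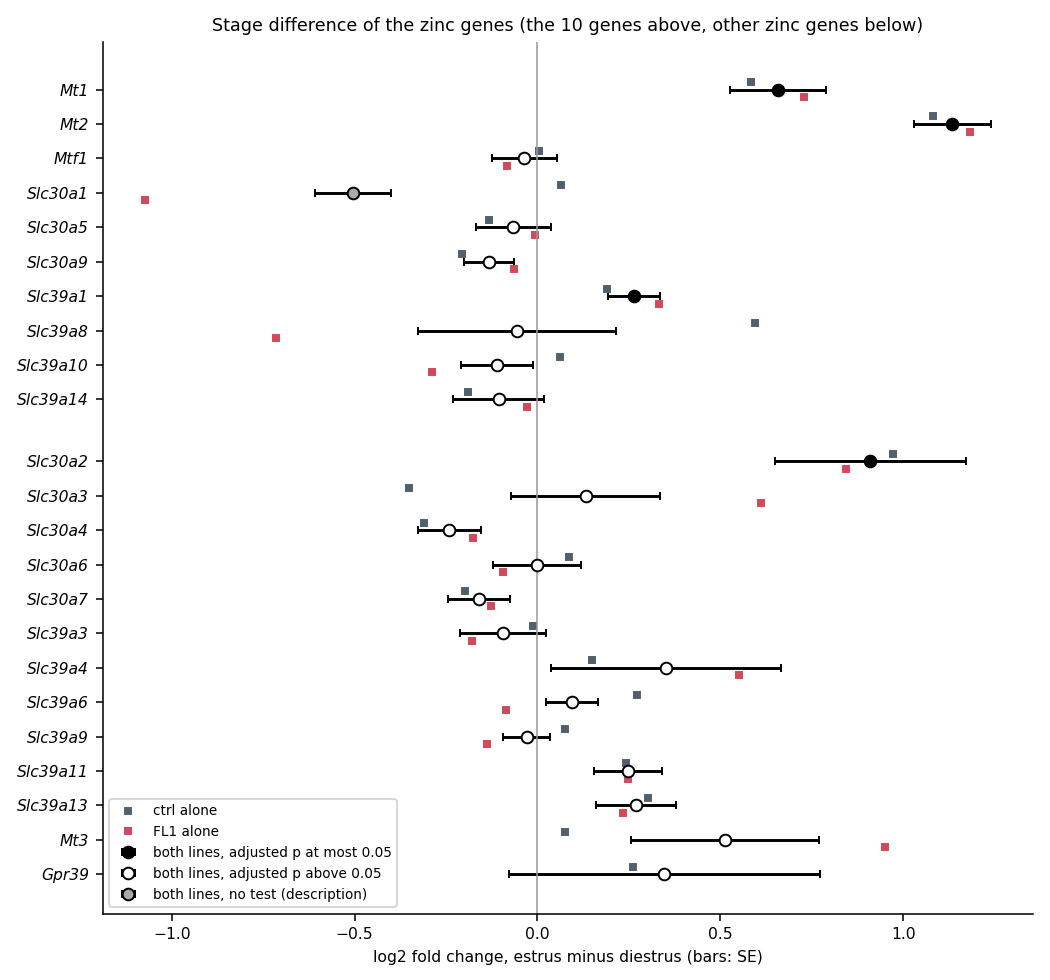
Log2 fold change between estrus and diestrus (horizontal axis, estrus minus diestrus; circles with SE bars: both lines, n = 20 libraries; squares: each line alone, n = 10) for the 10 genes and the 13 other zinc genes tested. Filled circles passed the test (*Mt1*, *Mt2*, *Slc39a1* and *Slc30a2*, all to the right of 0), open circles did not, and the grey circle of *Slc30a1* is a description, with its FL1 square at -1.07 and its ctrl square at 0.06.

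Of 21 further genes of zinc handling, 13 had enough reads for the test and 1 passed. *Slc30a2*, which fills secretory vesicles with zinc in the mammary gland, was 1.88-fold stronger expressed in estrus (log2FC 0.91, SE 0.26, adjusted p = 0.018, edgeR). Its level was low, with 9.89 ± 5.93 CPM in ctrl estrus, 7.56 ± 2.62 in FL1 estrus, 4.99 ± 2.12 in ctrl diestrus and 4.20 ± 1.38 in FL1 diestrus (mean ± SD, n = 5). In neither line alone did it pass. The median log2FC of the 13 genes was 0.13. The other 8 genes, *Slc30a8*, *Slc30a10*, *Slc39a2*, *Slc39a5*, *Slc39a7*, *Slc39a12*, *Mt4* and *Tmem163*, had at most 7 counts in any library. *Slc39a7* shares 2084 exonic bases with *Gm20427* on the same strand, and a read from that stretch belongs to both genes.

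Genes of 3 lists that bear on metals or on other inducers of metallothioneins were set beside all tested genes. Of these, 15.9% differed between the stages, 8.25% being stronger and 7.62% weaker expressed in estrus. Of 12 tested genes of copper and iron handling, 3 were stronger and 3 weaker expressed in estrus. The iron carrier *Trf* had a log2FC of 2.57 (SE 0.14, adjusted p = 1.6e-11, edgeR), the copper oxidase *Cp* of 0.76 (SE 0.18) and the iron exporter *Slc40a1* of 0.46 (SE 0.09). Of 12 glucocorticoid-responsive genes, 4 were weaker expressed in estrus and none stronger, among them *Dusp1* with a log2FC of -0.88 (SE 0.21), *Sgk1* of -0.63 (SE 0.17) and *Tsc22d3* of -0.60 (SE 0.07). Of 10 tested acute-phase and STAT3 genes, 2 were stronger and 1 weaker expressed, namely *Serpina3n* (log2FC 2.72, SE 0.40), *Lcn2* (1.22, SE 0.26) and *Saa3* (-2.28, SE 0.48). The median log2FC was -0.01 over the copper and iron genes, -0.26 over the glucocorticoid-responsive genes and 0.13 over the acute-phase genes, beside 0.00017 over all tested genes. The part of metals, glucocorticoids or inflammatory signals in the stage difference of *Mt1* and *Mt2* was not tested.

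Some markers of ovarian cell types moved with stage as well. In a whole ovary, fewer cells of a type and less RNA per cell cannot be told apart. The counts of markers stand beside all tested genes, of which 8.25% were stronger and 7.62% weaker expressed in estrus. Of 8 luteal markers, 6 were weaker and 1 stronger expressed in estrus. Their summed level was 15714 to 40722 CPM in ctrl estrus, 18202 to 35396 in FL1 estrus, 29184 to 51035 in ctrl diestrus and 35506 to 46520 in FL1 diestrus. Of these markers *Lhcgr*, the receptor of luteinizing hormone, had a log2FC of -2.19 (SE 0.21), *Star* of -1.13 (SE 0.27) and *Scarb1* of -0.99 (SE 0.21). Of 7 tested granulosa markers, 3 were weaker expressed in estrus, *Cyp19a1* (log2FC -1.46, SE 0.28), *Inhba* (-1.15, SE 0.22) and *Fshr* (-0.75, SE 0.17). The granulosa sum was 1287 to 3189 CPM in ctrl estrus, 2376 to 3726 in FL1 estrus, 2555 to 3974 in ctrl diestrus and 2571 to 3925 in FL1 diestrus. Of 4 tested theca markers, *Cyp17a1* was weaker (log2FC -4.42, SE 0.39) and *Mgarp* stronger expressed (1.03, SE 0.11). *Insl3* was at 0 in all FL1 libraries and had counts in at least 1 library of each ctrl group. No tested theca marker passed between the lines in either stage. The theca sum was 1615 to 4163 CPM in ctrl estrus, 1657 to 2121 in FL1 estrus, 1454 to 3241 in ctrl diestrus and 1748 to 2077 in FL1 diestrus. No oocyte marker of 10 and no oviduct marker of 2 tested passed. The median log2FC was -0.72 over the luteal, -0.20 over the granulosa and -0.14 over the theca markers tested. It was 0.19 over the oocyte and -0.06 over the oviduct markers tested.

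Markers of other cells in the ovary rose or fell in part, to be read beside the same shares of all genes. The median log2FC was 0.22 over the macrophage and 0.40 over the surface epithelium markers. It was 1.27 over the fat and -0.95 over the blood markers tested. Of 8 macrophage markers, *Cd68* (log2FC 0.63, SE 0.15), *C1qa* (0.40, SE 0.13) and *C1qb* (0.31, SE 0.10) were stronger expressed in estrus. Their summed level was 261.98 to 389 CPM in ctrl estrus, 315 to 552 in FL1 estrus, 188 to 341 in ctrl diestrus and 250 to 557 in FL1 diestrus. Of 8 markers of the surface epithelium, *Krt19* (log2FC 0.77, SE 0.22) and *Krt7* (0.76, SE 0.22) were stronger expressed. The surface epithelium sum was 112 to 140 CPM in ctrl estrus, 144 to 249 in FL1 estrus, 86.7 to 174 in ctrl diestrus and 84.8 to 125 in FL1 diestrus. How much surface epithelium stayed on each ovary after the tunica albuginea was removed is not stated. Of 5 tested fat markers, *Cfd* (log2FC 1.94, SE 0.66) and *Fabp4* (1.89, SE 0.35) were stronger expressed, with sums of 27.6 to 142 CPM in ctrl estrus, 65.2 to 142 in FL1 estrus, 21.5 to 51.4 in ctrl diestrus and 25.6 to 59.2 in FL1 diestrus, and *Lep* was at 0 in FL1 estrus. Of 5 tested blood markers, 4 were weaker expressed in estrus, among them *Hbb-bt* (log2FC -1.16, SE 0.26), *Hbb-bs* (-0.95, SE 0.24) and *Hba-a1* (-0.93, SE 0.27). The blood sum was 768 to 1592 CPM in ctrl estrus, 875 to 1668 in FL1 estrus, 440 to 2813 in ctrl diestrus and 1274 to 3519 in FL1 diestrus. The part of these cell types, of fat or of blood in the stage difference of *Mt1*, *Mt2* and *Slc39a1* was not tested.

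The second question was how the lines differed in each stage. *Slc30a1*, the exporter ZnT1 of the plasma membrane, had 1 group apart from the others. In estrus its libraries had 39.4, 34.6, 43.7, 32.9 and 56.6 CPM in ctrl and 31.1, 32.2, 42.5, 29.8 and 39.3 CPM in FL1. In diestrus they had 43.7, 40.8, 39.0, 33.9 and 40.0 CPM in ctrl and 65.8, 75.4, 73.4, 96.5 and 58.0 CPM in FL1. Every FL1 diestrus library lay above every library of the other groups. The group means were 73.8 ± 14.4 CPM in FL1 diestrus, 41.4 ± 9.47 in ctrl estrus, 39.5 ± 3.57 in ctrl diestrus and 35.01 ± 5.59 in FL1 estrus (SD, n = 5). The libraries of the last 3 groups overlapped, and their means differed by less than the SD of ctrl estrus. The log2FC of FL1 against ctrl was -0.24 (SE 0.16) in estrus and 0.90 (SE 0.13) in diestrus, and the second minus the first was 1.14 (SE 0.21) in a fit of all libraries. Between the stages, its log2FC was 0.06 (SE 0.15) in ctrl, -1.07 (SE 0.14) in FL1 and -0.50 (SE 0.10) over both lines. These values include the one the choice of the genes used, and they are given as a description.

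*Slc39a8* encodes the importer ZIP8 for zinc, manganese and iron, and its levels in FL1 lay below those in ctrl in both stages. In estrus it had 40.6, 35.1, 49.8, 70.2 and 49.05 CPM in ctrl and 3.38, 4.80, 8.38, 5.76 and 15.9 CPM in FL1. In diestrus it had 35.5, 26.0, 23.6, 23.2 and 53.8 CPM in ctrl and 18.2, 19.9, 14.5, 8.35 and 2.66 CPM in FL1. The lines did not overlap in either stage, while the stages overlapped within each line. In order of level, ctrl estrus had 48.9 ± 13.4 CPM, ctrl diestrus 32.4 ± 12.9, FL1 diestrus 12.7 ± 7.15 and FL1 estrus 7.65 ± 4.98 (SD, n = 5). FL1 was 6.27-fold lower than ctrl in estrus (log2FC -2.65, SE 0.33) and 2.53-fold lower in diestrus (log2FC -1.34, SE 0.38). The coefficient of variation was 65.1% in FL1 estrus and 56.2% in FL1 diestrus, against 27.3% and 40.0% in ctrl.

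The remaining 8 genes had smaller differences between the lines in each stage, which does not show equal expression. Their log2FC of FL1 against ctrl lay between -0.18 (*Mt1*) and 0.22 (*Slc39a14*) in estrus and between -0.32 (*Mt1*, SE 0.13) and 0.18 (*Slc39a10*, SE 0.14) in diestrus. *Mt2* had -0.01 (SE 0.13) and -0.11 (SE 0.15). By the same threshold, 1 of the 10 genes passed in estrus (*Slc39a8*), where 2.33% of 13374 tested genes did, and 1 in diestrus (*Slc30a1*), where 4.11% of 13259 did. In the test of whether the line difference depended on stage, 1 of the 10 passed (*Slc30a1*), against 0.0565% of all tested genes, or 8 of 14154. This call was lost in 12 of the 20 fits that left out 1 library, with limma-voom and with the replicate number as a block. All FL1 libraries lay on 1 side of all ctrl libraries in *Slc39a8* in estrus, as in 4.89% of all tested genes, and in *Slc30a1* and *Slc39a8* in diestrus, as in 5.45%. Nothing is read from these counts, since the genes were chosen on such values. Of the 13 other zinc genes tested, none passed between the lines in estrus and 1 passed in diestrus. This was *Slc30a7*, which supplies zinc to the secretory pathway and was named after its value was seen, with 54.3 ± 8.06 CPM in ctrl and 39.4 ± 3.02 CPM in FL1 (log2FC -0.46, SE 0.11). Its log2FC in estrus was -0.39 (SE 0.13).

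**Figure D5:**
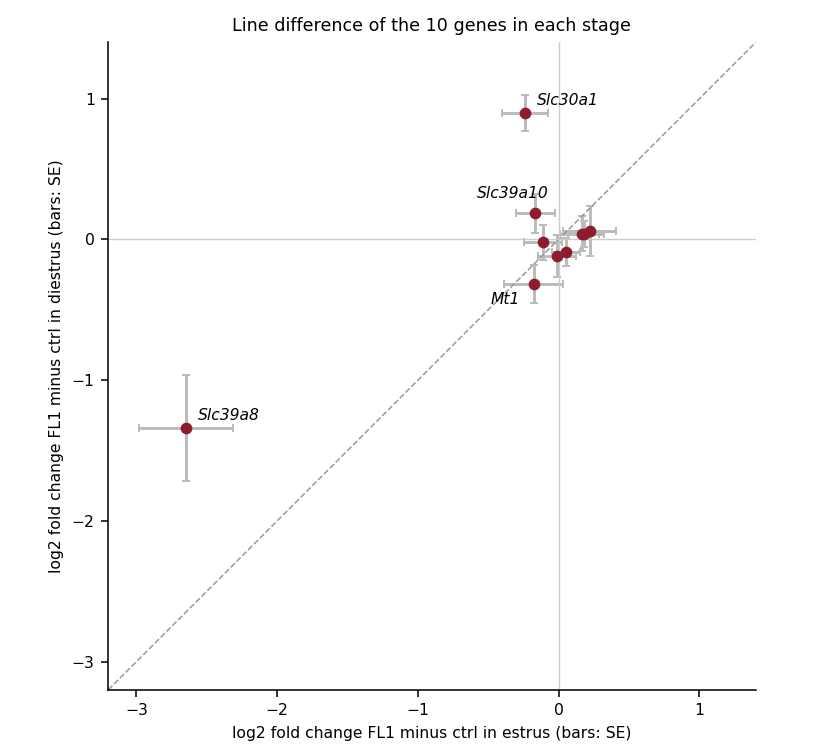
Log2 fold change of FL1 against ctrl in estrus (horizontal axis) and in diestrus (vertical axis) for the 10 genes, 1 point per gene with SE bars (n = 5 against 5 libraries in each stage). Most genes lie near 0 on both axes, *Slc39a8* lies at -2.65 and -1.34, and *Slc30a1* lies away from the dashed line of equal differences at -0.24 and 0.90.

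Of the 55 cell type markers tested between the lines in diestrus 6 passed (10.9%, beside 4.11% of all genes), and of 54 in estrus 2 passed (3.70%, beside 2.33%). In diestrus, where *Slc30a1* was stronger expressed in FL1, 1 of 7 tested granulosa, 1 of 8 luteal, 2 of 8 macrophage and 1 of 5 tested blood markers were stronger and 1 of 8 surface epithelium markers weaker expressed in FL1. In estrus, 1 of 8 macrophage and 1 of 8 surface epithelium markers were stronger expressed. The median log2FC of the 8 macrophage markers was below 0, at -0.31 in estrus and -0.19 in diestrus. Their mean summed level was higher in FL1, with 427 CPM against 320 in estrus and 375 against 245 in diestrus. In diestrus the mean sums, FL1 against ctrl, were 3364 and 3082 CPM for granulosa and 40489 and 41918 for luteal markers. They were 2611 and 1979 CPM for blood and 106 and 126 for surface epithelium markers. The ranges of these sums given above overlapped between the lines in diestrus for all 5 lists. The surface epithelium sums did not overlap in estrus. The part of cell composition in the line differences of *Slc30a1* and *Slc39a8* was not tested.

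The genes whose expression ran most alike over the 20 libraries were named for *Slc30a1* and the metallothioneins among 14154 tested genes, as a description over points that share library and normalization. For *Slc30a1* they were *Klf3* (Pearson's r of log2 CPM 0.88), *Txnrd1* (0.88), *Csnk1e* (0.86), *Enah* (0.85) and *Npc2* (0.85). With the group means removed their r was 0.59, 0.38, 0.61, 0.73 and 0.48. For *Mt1* they were *Xdh* (0.85), *Mt2* (0.85), *Mmp2* (0.84), *Myo1c* (0.84) and *Hdac5* (0.83), and with the group means removed 0.74, 0.72, 0.62, 0.77 and 0.56. For *Mt2* they were *Ren1* (0.93), *Sphk1* (0.92), *Glul* (0.92), *Ptprn* (0.92) and *Prss35* (0.92), which fell to between 0.33 and 0.46 with the group means removed. With the group means removed, r was thus higher for each gene named with *Mt1* than for any gene named with *Mt2*. The genes were picked by r with the group means included, so this compares the named lists and not the metallothioneins themselves. Among the 45 pairs of the 10 genes, r with the group means removed had a median of -0.13. It was highest between *Mt1* and *Mt2* (0.72) and lowest between *Mtf1* and *Slc30a1* (-0.67). The latter rests on the *Mtf1* values, which are uncertain because of the overlap with *1110065P20Rik*.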

How the data were processed

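Whole-ovary RNA was made into QuantSeq forward libraries, which capture transcripts at the poly(A) tail, and read on an Illumina HiSeq. The authors aligned the reads to GRCm38 with STAR. They deposited raw counts of uniquely assigned reads for 54838 Ensembl genes, 1 table per library, without normalization, filtering or pooling. The submitters' processing notes also list Cuffdiff. The counting tool, its strand setting and molecular identifiers are not given in the sources used here, so the precision stated covers counting error and the spread between animals only. Line, stage and replicate came from the titles and characteristics of the labels. The source name reads FL1 for all libraries and was not used.

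The 10 genes, the comparisons and all gene lists were chosen with earlier results of these data known. GENCODE M21 (GRCm38) supplied symbols for 54809 genes, and RefSeq (GRCm38.p6) the promoter windows. Counts were normalized by TMM, filtered by filterByExpr with a minimum count of 10 and tested with edgeR 4.0.16 (glmQLFit, glmQLFTest) in R 4.3.3. Adjusted p-values are Benjamini-Hochberg values over all tested genes, with a threshold of 0.05. SEs were derived from the F statistic of each gene. The stage difference was fitted over 20 libraries as the mean of both estrus groups minus the mean of both diestrus groups. The lines were compared in the 10 libraries of a stage. For r, log2 CPM were taken with a prior count of 2. Alternatives were DESeq2 1.42.0, limma-voom (limma 3.58.1), RLE size factors, other filters, each line alone, 1 fit of all libraries, a replicate block and each library left out.

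Named genes were the 10 genes, other zinc genes that passed the stage test or were not tested, the 5 genes with the highest r for *Slc30a1*, *Mt1* and *Mt2*, and up to 3 passing genes of each other list by size of log2FC. On counts simulated for the stage difference (14154 genes, 13907 tested, 200 changed by 1 on the log2 scale), edgeR called 171 genes and recovered 159 of the changed ones, with 12 false calls. The simulated lines did not differ, and fewer genes were changed than the 2245 that passed in the data. Libraries of a group differed by more than sampling noise, with a chi-square per gene of 6.03 to 42.4 over 40 pairs. Shared 3' ends were searched as stretches of 31 nt in the last 300 nt of each transcript, of which a copy had to hold 50. Tables and plots were made in Python 3.11.15 (numpy 2.4.6, pandas 2.3.3, matplotlib 3.10.9).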

Additional observations from a re-analysis of the deposited data

Results flagged for a closer look

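*Slc30a1* stands here because its line difference depended on stage, the pattern on which the gene was chosen. FL1 against ctrl was -0.24 on the log2 scale in estrus and 0.90 in diestrus, and the second minus the first was 1.14 (SE 0.21). These values are therefore a description and no test of it. The call was lost in 12 of 20 fits without 1 library, with limma-voom and with the replicate block, and it was kept with RLE size factors, DESeq2 and both other filters on low counts. Among the 44 groups of values examined (11 genes in 4 groups), no library stood apart by Dixon's test.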

How the results depend on the processing

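The stage differences of *Mt1*, *Mt2* and *Slc39a1* kept their direction and passed in all 20 fits without 1 library and in 6 other settings over both lines. In the 10 ctrl libraries alone, 380 genes and 1 of the 10 genes passed (*Mt2*), against 2245 and 4 over both lines, *Slc30a1* included. There, the log2FC of *Mtf1* turned to 0.0052, of *Slc30a1* to 0.064, of *Slc39a8* to 0.59 and of *Slc39a10* to 0.063, and that of *Slc39a8* was 0.023 with limma-voom. Without 1 library the log2FC ranged from -0.074 to 0.0025 for *Mtf1* and from -0.29 to 0.066 for *Slc39a8*. The ratio of *Mt1* to *Mt2* kept its direction without each library, from -0.58 to -0.46. Between the stages, 2540 genes passed without ctrl estrus replicate 5, the library with the highest *Mt1* value.

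Between the lines in estrus, 311 genes passed, 670 with DESeq2, 477 without a filter on low counts and 531 in 1 fit of all 20 libraries. Without 1 library 175 to 418 passed there, most without ctrl estrus replicate 5. In diestrus, 545 passed, 891 with DESeq2, 846 without a filter and 349 to 594 without 1 library, lowest without FL1 diestrus replicate 4. Of the 10 genes, 1 passed there, 2 without a filter (*Slc30a1* and *Slc39a8*) and 1 to 2 without 1 library. For the dependence of the line difference on stage, 8 genes passed, 148 with DESeq2, 3 with limma-voom, 17 without a filter and 0 to 15 without 1 library, where 1654 had an unadjusted p under 0.05. Of the 10 genes, 1 passed, 0 with limma-voom and 0 to 1 without 1 library. The cause of these shifts was not tested.

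Same-numbered libraries are different animals, and their deviations from the group means ran together weakly at most (r from -0.0953 to 0.201 over 30 pairs). Among the 5 libraries of another group, the best match had the same number in 10 of 30 comparisons. Whether this is more than by guessing was not tested. With the replicate block, 2224 genes passed between the stages, 230 between the lines in estrus, 498 in diestrus and 12 for the dependence on stage, among which 0 of the 10 genes. In the stage difference it changed no call among the 10 genes.

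The counts of 8 zinc genes were too low for the test, and for *Slc39a7* the part of its overlap with *Gm20427* was not tested. With 5 animals per group, p-values set a difference against the spread between these animals.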
